A study of Mus musculus with 17 samples.

Results

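The data described here are the 6 testes of mice without inhibin, taken at E15.5 (3 libraries) and at PND 0, the day of birth (3 libraries), out of 17 whole-testis RNA libraries in all. They were chosen by their titles, Inha E15.5 KO and Inha PND0 KO, and genotype was read from the title. The Inha KO allele on the C57/Bl6 background lacks the coding sequence of the mature inhibin alpha subunit, in every cell of the animal and not in one cell type, and the KO and WT animals came from breeding heterozygotes. Testes were dissected free of the mesonephros, PND 0 pups were born naturally, and the RNA came from 1 whole testis of an animal. The age comparison within KO testes is set beside the same comparison in 3 WT testes at E15.5 and 3 at PND 0, which share no library with it. The labels do not say whether libraries of a group came from separate litters. P-values therefore measure only the spread between these samples, which may be partly technical or shared within litters.

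Inhibins are dimers of the alpha subunit, encoded by Inha, with a beta subunit encoded by Inhba or Inhbb. Without alpha, beta subunits can pair only with each other to form activins, which signal through type II and type I receptors to SMAD2 and SMAD3, so the KO testis is a model of activin excess in fetal life. Between mid-gestation and birth the fetal Leydig cells of the interstitium make androgen, Sertoli cells multiply and extend the cords, and germ cells leave the mitotic and pluripotent-like state, arrest as prospermatogonia and set up piRNA-guided DNA methylation. The comparison asks how this programme ran between E15.5 and birth in testes that never had inhibin.

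The 6 KO libraries held 21517626 to 22166752 counts, and levels are given as CPM, counts scaled to a common effective library size (TMM). The targeted gene, Inha (chromosome 1, 75507077 to 75510366, GRCm38), had 3 to 68 counts in the 6 KO libraries and 11927 to 38565 in the 6 WT libraries of these ages. The first principal component held 62.4% of the variance of the KO libraries and separated the ages, with E15.5 libraries scoring from -49.5 to -46.1 and PND 0 libraries from 42.1 to 51.3. Some libraries stood apart on single gene lists. E15.5 KO replicate 2 had a summed erythroid level of 7056 CPM against 2478 and 2437 CPM in its group, and PND 0 KO replicate 3 had a summed neutrophil and mast cell level of 602 CPM against 73.6 and 76.2 CPM. PND 0 KO replicate 1 correlated with the 3 PND 0 WT libraries at 0.987 to 0.989 (Pearson r of log2 CPM across genes, which are not independent replicates), and PND 0 KO replicates 2 and 3 correlated with them at 0.976 to 0.985. Replicates 2 and 3 share the title number 4295, and replicate 1 shares the number 4183 with 2 of the PND 0 WT libraries. E15.5 KO replicate 2 shares the number 4138 with E15.5 WT replicate 2, and no number is shared between the ages. What the numbers mark is not given in the sources used here.

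Between E15.5 and birth 19.7% of the tested genes changed in the KO testis. Of 18635 tested genes 1783 were higher at PND 0 (9.57%) and 1895 were lower (10.2%), where a call needed a change of 1.5-fold or more with an adjusted p under 0.05 (edgeR's quasi-likelihood test, Benjamini-Hochberg). An 8-fold change or more was reached by 57 genes that rose and 119 that fell. The median log2 fold change of all tested genes was -0.013. All log2 fold changes below are PND 0 relative to E15.5 in KO testes unless WT is named. In whole-testis RNA, fewer cells of a type and less RNA per cell cannot be told apart, and this holds for every result below. Where the ages are said not to overlap, this only describes the libraries of the genes named. The share of all tested genes without overlap is not given here.

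**Figure D1:**
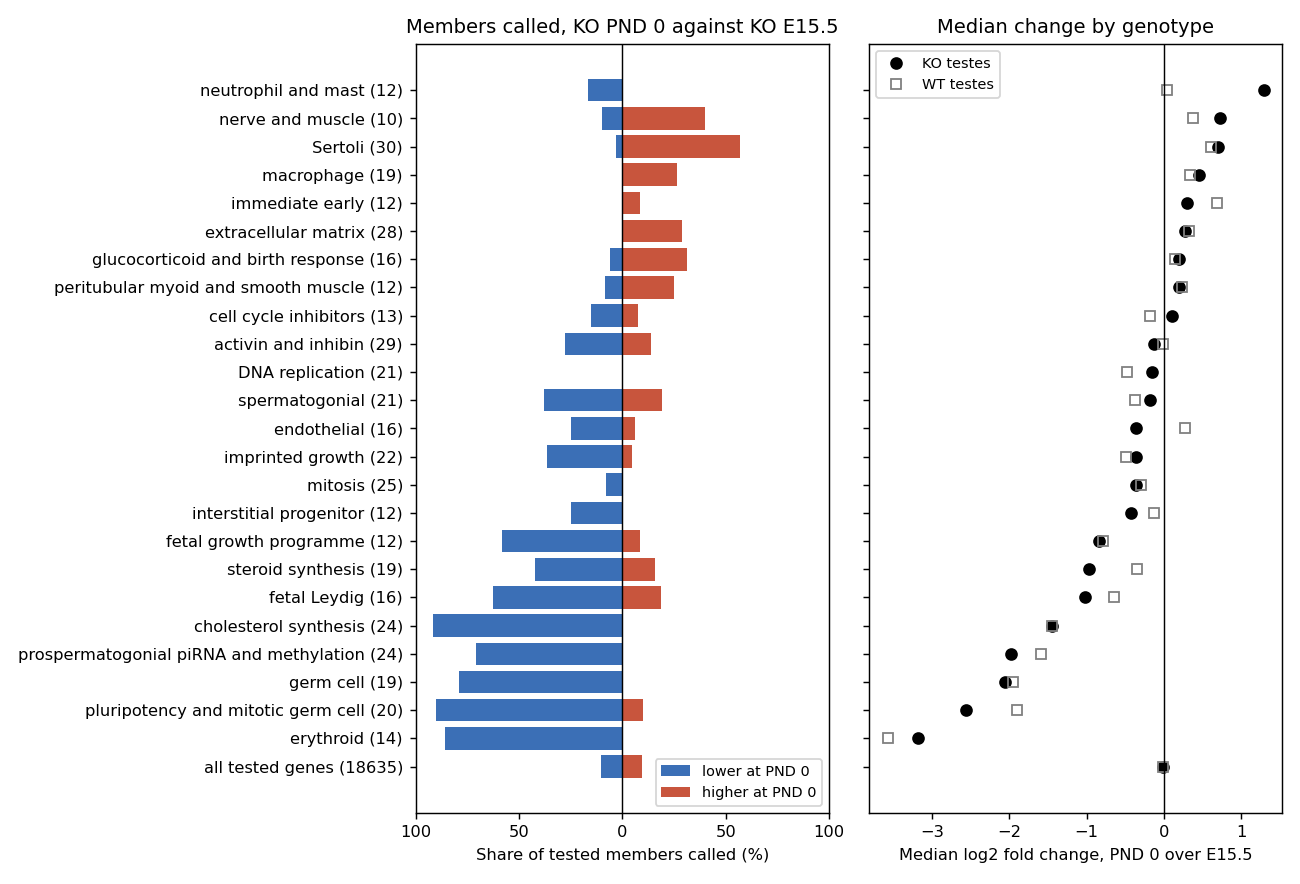
Left, share of the tested members of each gene list that were called lower (blue) or higher (red) at PND 0 than at E15.5 in KO testes, in percent, with the number tested in brackets; right, the median log2 fold change of the list in KO (filled circles) and WT testes (open squares). The germ line, erythroid and cholesterol lists lie farthest to the left, the Sertoli list lies to the right, and all 18635 genes sit at -0.013.

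The largest rises among abundant genes were spread over secreted proteins, transporters and enzymes. Cst12, which encodes a cystatin of the testis, stood at 4.63, 5.92 and 6.69 CPM at E15.5 and 107, 102 and 95.1 CPM at PND 0 (log2 fold change 4.14, SE 0.15, adjusted p = 7.0e-11). Rarres1, a retinoid-responsive gene, had 1.91, 1.503 and 2.86 CPM at E15.5 and 25.4, 39.7 and 32.0 CPM at PND 0 (log2 fold change 3.95, SE 0.24, adjusted p = 1.1e-08), and Dpt, which encodes the matrix protein dermatopontin, had 2.95, 4.84 and 5.04 CPM at E15.5 and 76.9, 55.0 and 47.9 CPM at PND 0 (log2 fold change 3.81, SE 0.24, adjusted p = 2.5e-08). In each of these 3 genes every PND 0 library lay far above every E15.5 library. Absence of overlap between the ages was a condition for the 12 genes named in each direction, so it is no further support for them. Cp, which encodes the copper carrier ceruloplasmin, Abcb5, an ABC transporter, Asb2, an adaptor of a ubiquitin ligase, and Msln, a mesothelial surface protein, had log2 fold changes of 3.27, 3.67, 3.35 and 3.28. Glb1l3, Lvrn, Klhdc7a, Ppp1r1b and Rhox8 completed the 12 genes with the largest rises, at log2 fold changes from 3.21 to 3.82. Of the 12 largest falls 7 were red cell genes, 4 were germ line genes (Dppa3, Piwil4, Utf1 and Pou5f1) and the remaining one was Hmga2. Of the red cell genes Car2, Hemgn, Epb42 and Slc4a1 were high mainly in E15.5 KO replicate 2, where Car2 had 11.4, 120.0 and 10.8 CPM in the 3 E15.5 libraries. Without that library their log2 fold changes were -2.23, -5.60, -3.37 and -4.14, in place of -4.32, -8.60, -5.59 and -5.99, so their place among the largest falls rests on it in part. With limma voom Car2 (adjusted p = 0.0611), Hemgn (0.182) and Epb42 (0.0875) were not called. Hmga2 (chromosome 10, 120361275 to 120476469), which encodes a chromatin architectural protein of fetal tissues, had 118, 109 and 60.1 CPM at E15.5 and 6.65, 4.74 and 6.41 CPM at PND 0 (log2 fold change -4.01, SE 0.27, adjusted p = 3.6e-08). The WT testes changed in the same direction for all 24 of these genes.

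Among 29 tested genes of the activin, inhibin and related TGF-beta pathway, 4 rose and 8 fell in KO testes (median log2 fold change -0.13). The subunits that remain without Inha both rose. Inhbb, the beta B subunit, had 267, 305 and 292 CPM at E15.5 and 470.2, 568 and 504 CPM at PND 0 (log2 fold change 0.84, SE 0.08, adjusted p = 8.9e-07), and Inhba, the beta A subunit that forms activin A, had 43.0, 45.6 and 57.5 CPM at E15.5 and 91.7, 88.7 and 71.9 CPM at PND 0 (log2 fold change 0.79, SE 0.19, adjusted p = 0.00398). The libraries of the 2 ages did not overlap for either gene. In WT testes the same genes had log2 fold changes of 0.83 and 0.75, and there Inha itself rose from 605 ± 49.3 to 1632 ± 127 CPM (mean ± SD of 3 libraries each), a log2 fold change of 1.43 (adjusted p = 6.4e-04). The residual Inha signal of KO testes, 0.499, 3.19 and 0.268 CPM at E15.5 and 0.512, 0.426 and 0.142 CPM at PND 0, was not called (log2 fold change -1.83, adjusted p = 0.105). It passed the threshold without E15.5 KO replicate 3 (-2.32, adjusted p = 0.0299), and most of it came from E15.5 KO replicate 2.

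The proteins that hold activin back did not move together. Fstl3, which encodes a secreted activin-binding protein, rose (8.40, 8.97 and 9.68 CPM at E15.5 and 19.7, 25.5 and 16.2 CPM at PND 0; log2 fold change 1.18, SE 0.16, adjusted p = 3.8e-05), whereas Fst, which encodes follistatin, had 8.58, 7.47 and 8.12 CPM at E15.5 and 6.79, 8.95 and 9.16 CPM at PND 0 and was not called (log2 fold change 0.043, adjusted p = 0.878). Of the receptors, the type II receptor gene Acvr2b fell from 6.54 ± 0.449 to 3.77 ± 0.636 CPM (mean ± SD of 3 libraries each), with log2 fold change -0.80, SE 0.15, adjusted p = 4.8e-04. Acvr2a, Acvr1b and Acvr1c were not called, at log2 fold changes of 0.012, 0.045 and -0.67, nor were the signal carriers Smad2, Smad3 and Smad4, at 0.14, -0.15 and 0.019. Tgfbr3, which encodes the inhibin co-receptor betaglycan, was 77.9, 89.6 and 71.8 CPM and then 105, 111 and 120.4 CPM (log2 fold change 0.49, adjusted p = 3.6e-04), a change under 1.5-fold. The other members that were not called were the receptor genes Tgfbr1 (-0.38) and Tgfbr2 (0.31), the ligand genes Tgfb2 (-0.25) and Tgfb3 (-0.017) and the inhibitor genes Smad7 (0.15) and Bambi (-0.13).

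Lefty2 (chromosome 1, 180893108 to 180899103), which encodes an inhibitor of Nodal and activin-like signals, fell most in this list. It had 30.8, 28.4 and 31.9 CPM at E15.5 and 4.84, 1.23 and 1.52 CPM at PND 0 (log2 fold change -3.58, SE 0.34, adjusted p = 8.5e-07). All 3 PND 0 values lay far below the lowest E15.5 value, and replicate 1 was the highest of the 3. Without replicate 1 the log2 fold change was -4.46 (adjusted p = 8.0e-08). Lefty1, its neighbour in the family, was not called (log2 fold change -0.57, adjusted p = 0.167). Nodal was low at both ages, with 1.45, 0.799 and 0.491 CPM at E15.5 and 0.186, 0.474 and 0.237 CPM at PND 0 (log2 fold change -1.60, adjusted p = 0.0431), and its call was lost without E15.5 KO replicate 1 (log2 fold change -1.09, adjusted p = 0.218), without E15.5 KO replicate 2 (0.0614), without PND 0 KO replicate 1 (0.132) and without PND 0 KO replicate 3 (0.113). Bmp2, Bmp4, Gdf11 and Tgfb1, which encode further ligands of the family, fell, with log2 fold changes of -1.02, -0.79, -0.77 and -0.62. Without PND 0 KO replicate 3 Tgfb1 was lower by less than 1.5-fold (-0.58). The 8th gene that fell, the Nodal co-receptor gene Tdgf1, had 12 counts over the 3 E15.5 libraries and 1 over the 3 PND 0 libraries, a ratio of 11.6 with a counting interval of 1.72 to 497 (95%, exact), and its call was lost without any 1 of 5 libraries (adjusted p from 0.0750 to 0.120), all but PND 0 KO replicate 3. Amhr2, the receptor of anti-Müllerian hormone, was the remaining gene that rose (80.4, 84.7 and 78.9 CPM at E15.5 and 117, 145 and 150.0 CPM at PND 0; log2 fold change 0.76, adjusted p = 6.4e-04), and Amh itself was higher by less than 1.5-fold (1517, 1562 and 1683 CPM at E15.5 and 2310.4, 2063 and 2104 CPM at PND 0; log2 fold change 0.44, adjusted p = 3.2e-04).

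In the steroid pathway early enzymes fell and enzymes of the last step rose. Steroid synthesis begins when STAR moves cholesterol into the mitochondrion, where CYP11A1 cleaves its side chain with electrons from ferredoxin (Fdx1). HSD3B1 and CYP17A1, the latter with electrons from POR, then carry the product towards androstenedione, and HSD17B enzymes make testosterone. Of 19 tested genes 3 rose and 8 fell (median log2 fold change -0.97). Cyp17a1 (chromosome 19, 46667165 to 46673172) had 2167, 2472 and 2252 CPM at E15.5 and 212, 169 and 226 CPM at PND 0 (log2 fold change -3.504, SE 0.28, adjusted p = 1.8e-07), the largest fall of the list, and the libraries of the 2 ages did not approach each other. Cyp11a1 had 1692, 1912 and 1811 CPM at E15.5 and 953, 472 and 423 CPM at PND 0 (log2 fold change -1.55, SE 0.26, adjusted p = 2.4e-04), with PND 0 replicate 1 between the E15.5 libraries and the other PND 0 libraries. Star had 247, 303 and 269 CPM at E15.5 and 124, 119.6 and 134 CPM at PND 0 (log2 fold change -1.12, SE 0.19, adjusted p = 2.0e-04), with the 3 PND 0 libraries close together.

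**Figure D2:**
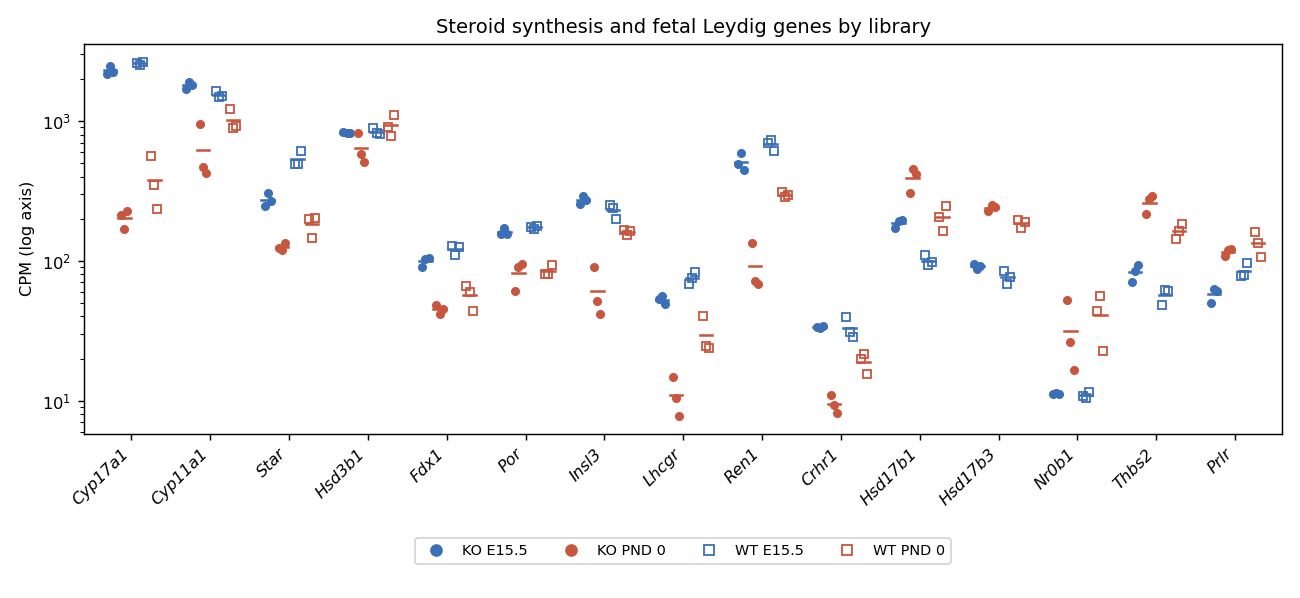
CPM on a log axis of 15 steroid synthesis and fetal Leydig genes in each library of KO (filled circles) and WT testes (open squares) at E15.5 (blue) and PND 0 (red), with group means as short lines. Cyp17a1 lies at 2167 CPM or more in every KO E15.5 library and at 226 CPM or less in every KO PND 0 library, while Hsd17b1 and Hsd17b3 lie higher at PND 0.

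Among genes of electron transfer, Fdx1 and Por fell, whereas Fdxr and Cyb5a, given below, were not called. Fdx1 fell from 99.2 ± 8.19 to 44.9 ± 3.28 CPM and Por from 161 ± 9.81 to 82.0 ± 18.6 CPM (mean ± SD of 3 libraries each), at -1.14 and -0.97 on the log2 scale, and Hsd17b7, which also acts in cholesterol synthesis, fell from 76.7 ± 9.06 to 16.3 ± 3.09 CPM (log2 fold change -2.23, adjusted p = 2.9e-07). Hsd11b2, which inactivates glucocorticoid, fell from 89.9 ± 12.5 to 42.8 ± 6.04 CPM (log2 fold change -1.07, adjusted p = 1.3e-04), and Hsd3b6, a near relative of Hsd3b1 with which it could share reads, was low throughout (1.27, 1.03 and 1.12 CPM at E15.5 and 0.326, 0.0947 and 0.0949 CPM at PND 0; log2 fold change -2.68, adjusted p = 0.00292; log2 fold change -3.51 without PND 0 KO replicate 1). Hsd3b1 had 831, 827 and 819.9 CPM at E15.5 and 819, 583 and 506 CPM at PND 0 and was not called (log2 fold change -0.38, adjusted p = 0.0658), nor were Fdxr (log2 fold change -0.044, adjusted p = 0.648), Cyb5a (log2 fold change 0.37, adjusted p = 0.0017) and the steroidogenic regulator gene Nr5a1 (log2 fold change -0.16, adjusted p = 0.206). Replicates 2 and 3 at PND 0 lay below all E15.5 libraries for Hsd3b1, and replicate 1 lay just below them. Without replicate 1 Hsd3b1 was called (log2 fold change -0.60, adjusted p = 0.00376). Srd5a1, a 5-alpha reductase gene, was not called (log2 fold change -0.37, adjusted p = 0.0272), nor was Hsd11b1, which reactivates glucocorticoid (0.136, 0.658 and 0.312 CPM at E15.5 and 0.465, 0.852 and 1.71 CPM at PND 0; log2 fold change 1.44, adjusted p = 0.0742), and Hsd11b1 passed the threshold without E15.5 KO replicate 2 (2.14, 0.0326) or PND 0 KO replicate 1 (1.79, 0.0347).

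The enzymes of the last step, which in the fetal mouse testis are made mainly by Sertoli cells, moved the other way. Hsd17b3 had 95.6, 87.6 and 92.2 CPM at E15.5 and 228, 249.7 and 243 CPM at PND 0 (log2 fold change 1.39, SE 0.076, adjusted p = 6.2e-09) and Hsd17b1 had 172, 192 and 197 CPM at E15.5 and 308, 455 and 417 CPM at PND 0 (log2 fold change 1.07, SE 0.24, adjusted p = 0.0018). Nr0b1, which encodes the repressor DAX1, also rose, but its 3 PND 0 libraries were far apart (11.2, 11.3 and 11.2 CPM at E15.5 and 52.5, 26.1 and 16.6 CPM at PND 0; log2 fold change 1.496, SE 0.34, adjusted p = 0.00221). The adrenal-type enzyme genes Cyp11b1 and Cyp21a1 were not called. Cyp21a1 had 8.81, 6.25 and 15.7 CPM at E15.5 and 8.51, 0.947 and 0.902 CPM at PND 0 (log2 fold change -1.56, adjusted p = 0.0573) and Cyp11b1 had 2.32, 2.68 and 2.41 CPM at E15.5 and 2.70, 0.426 and 0.190 CPM at PND 0 (log2 fold change -1.15, adjusted p = 0.184). For both, replicate 1 at PND 0 was near the E15.5 level and replicates 2 and 3 were far lower. Without replicate 1 both were called, Cyp21a1 at -3.46 (adjusted p = 3.2e-04) and Cyp11b1 at -2.98 (0.00820), and Cyp21a1 was also called without E15.5 KO replicate 2 (-1.82, 0.0444).

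Markers of fetal Leydig cells fell with the early steps of the pathway, 10 of 16 lower and 3 higher (median log2 fold change -1.03). The list shares Star, Cyp11a1, Hsd3b1 and Cyp17a1 with steroid synthesis. Insl3 (chromosome 8, 71689214 to 71690575), the hormone of testis descent, whose exons overlap those of Jak3, had 256, 293 and 271 CPM at E15.5 and 90.6, 51.2 and 41.3 CPM at PND 0 (log2 fold change -2.16, SE 0.25, adjusted p = 5.7e-06). Lhcgr, the receptor for luteinizing hormone, had 52.9, 56.2 and 49.4 CPM at E15.5 and 14.8, 10.4 and 7.78 CPM at PND 0 (log2 fold change -2.26, SE 0.24, adjusted p = 2.8e-06), and Ren1, renin, had 494, 592 and 447 CPM at E15.5 and 134, 71.7 and 68.2 CPM at PND 0 (log2 fold change -2.48, SE 0.28, adjusted p = 5.4e-06). Each of these 3 had its PND 0 values below all E15.5 values, and replicate 1 was the highest of the PND 0 libraries. The corticotropin receptor gene Mc2r and the corticotropin-releasing hormone receptor gene Crhr1 had log2 fold changes of -2.09 and -1.82. Mrap, the accessory protein of that receptor, and Scarb1, a lipoprotein receptor, also fell (-0.93 and -0.66), and the Scarb1 call was lost without E15.5 KO replicate 3 (adjusted p = 0.0928), PND 0 KO replicate 2 (0.0626) or PND 0 KO replicate 3 (0.0751). Agt was not called (-0.06). The 3 markers that rose, named because they were few, were Thbs2 (1.65), Prlr (1.01) and Gsta4 (0.60), so the list did not move as one. Without E15.5 KO replicate 1 or PND 0 KO replicate 1 Gsta4 changed less than 1.5-fold (0.57 and 0.56). The summed level of the 16 markers was 6910.3, 7719 and 7446 CPM at E15.5 and 3722, 2728 and 2628 CPM at PND 0.

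Cells that can give rise to Leydig cells were marked by 12 genes, of which 3 fell and none rose (median log2 fold change -0.43). The share called, 25%, was near the 19.7% of all tested genes called in either direction. Nes (nestin), Pdgfrb and Wnt5a had log2 fold changes of -1.28, -1.12 and -0.81. The 3 most abundant that were not called, Pdgfra, Nr2f2 and Tcf21, had 0.42, -0.50 and -0.37. Nr2f2 passed the fold threshold without E15.5 KO replicate 3 (-0.60) or PND 0 KO replicate 1 (-0.61).

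Cholesterol synthesis, which supplies the substrate of steroid synthesis and cell membranes, fell as a pathway. Of 24 tested genes 22 were lower and none was higher, with a median log2 fold change of -1.45 against -0.013 for all tested genes, and leaving out any 1 of the 6 KO libraries left 22 lower. Lss, which closes the sterol rings as lanosterol synthase, had 176, 201 and 204 CPM at E15.5 and 33.7, 37.1 and 31.3 CPM at PND 0 (log2 fold change -2.51, SE 0.15, adjusted p = 1.1e-08). Tm7sf2, a sterol reductase, had 57.7, 63.8 and 57.9 CPM at E15.5 and 11.3, 6.53 and 5.93 CPM at PND 0 (log2 fold change -2.91, SE 0.23, adjusted p = 1.4e-07), and Mvd, the last mevalonate enzyme, had 66.0, 75.6 and 76.0 CPM at E15.5 and 15.3, 19.8 and 17.6 CPM at PND 0 (log2 fold change -2.05, SE 0.13, adjusted p = 2.4e-08). In all 3 every PND 0 library lay far below the lowest E15.5 library. Fdps, which acts before the ring closure, and Cyp51 and Msmo1, which act after it, had log2 fold changes of -1.96, -1.99 and -1.89. Srebf2, the transcription factor of the pathway, fell by 0.86 on the log2 scale. The 2 members that were not called were Ebp (40.8, 44.5 and 37.6 CPM at E15.5 and 26.1, 30.3 and 30.7 CPM at PND 0; log2 fold change -0.50, adjusted p = 0.0033) and Scap, the escort of SREBP proteins, which was higher at PND 0 by less than 1.5-fold (234, 245 and 238 CPM at E15.5 and 307, 335 and 353 CPM at PND 0; log2 fold change 0.47, adjusted p = 3.7e-05). The WT testes gave nearly the same median, -1.45.

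**Figure D3:**
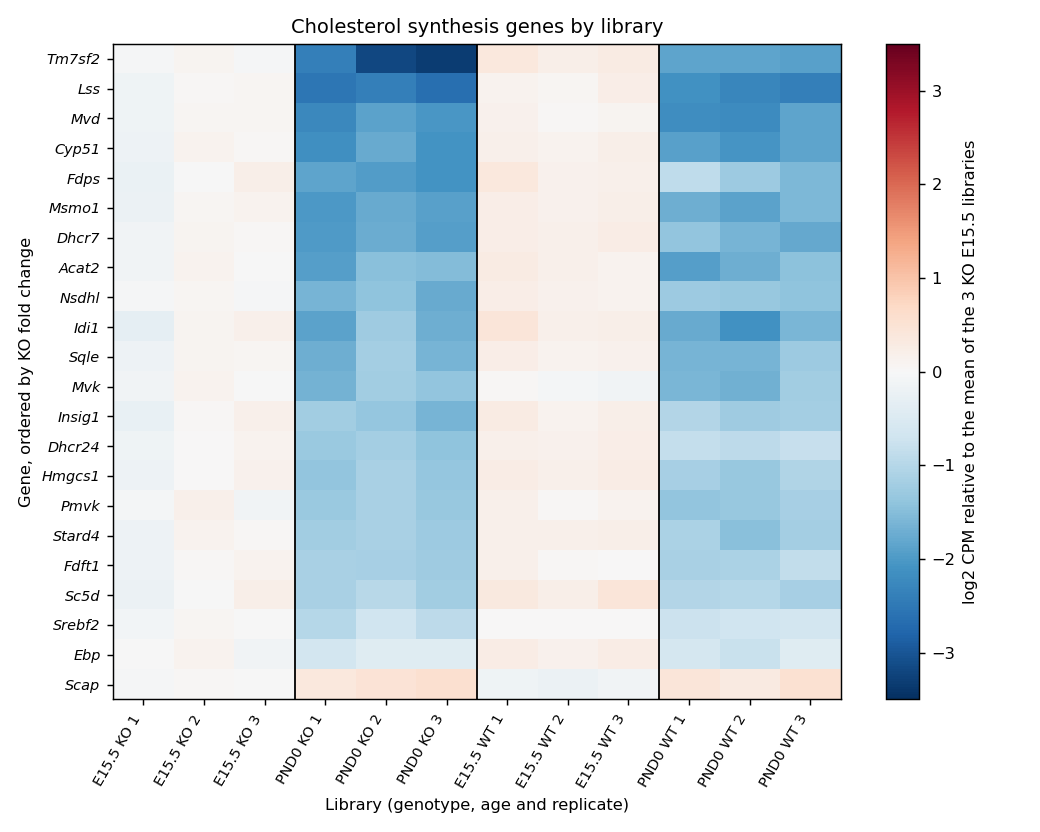
Heat map of 22 of the 24 cholesterol synthesis genes (rows, ordered by KO fold change) in the 12 KO and WT libraries at E15.5 and PND 0 (columns), as log2 CPM relative to the mean of the 3 KO E15.5 libraries. Scap, at 307, 335 and 353 CPM in the KO PND 0 libraries, is the only gene drawn that lies above its KO E15.5 mean at PND 0 in either genotype, and the other 21 lie below theirs.

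The starts of these genes were read because the members moved together. RefSeq (GRCm38.p6) gave a window of 300 bases, 250 before and 50 after the start, for 17 of the 24 genes. The sterol regulatory element TCACNCCAC, searched on both strands, was found in 1 of the 17, Hmgcs1 (5.88%, against 1.44% of 27025 genes with a window of this length). The CCAAT box, a short element bound by NF-Y and chosen here after the fall of the list was known, was found on either strand in 15 of the 17 (88.2%, against 41.1% of all windows). A match is a description and not a site in use. The 3 windows below are those of Hmgcs1, which holds the sterol element, and of the 2 genes with the largest falls among those with a window, Tm7sf2 and Lss. They are written 5′ to 3′ on the strand of the gene, and capitals mark TCACCCCAC in Hmgcs1 and every CCAAT or its reverse complement ATTGG. Hmgcs1 lies at chr13:119690101-119690400 (plus strand), Tm7sf2 at chr19:6067801-6068100 (minus strand) and Lss at chr10:76531355-76531654 (plus strand).
Hmgcs1: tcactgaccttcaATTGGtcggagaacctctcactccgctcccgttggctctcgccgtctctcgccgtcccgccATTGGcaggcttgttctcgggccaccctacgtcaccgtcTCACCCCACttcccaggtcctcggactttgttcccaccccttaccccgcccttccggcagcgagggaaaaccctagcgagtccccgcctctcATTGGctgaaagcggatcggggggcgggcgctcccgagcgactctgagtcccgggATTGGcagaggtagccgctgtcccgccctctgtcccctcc
Tm7sf2: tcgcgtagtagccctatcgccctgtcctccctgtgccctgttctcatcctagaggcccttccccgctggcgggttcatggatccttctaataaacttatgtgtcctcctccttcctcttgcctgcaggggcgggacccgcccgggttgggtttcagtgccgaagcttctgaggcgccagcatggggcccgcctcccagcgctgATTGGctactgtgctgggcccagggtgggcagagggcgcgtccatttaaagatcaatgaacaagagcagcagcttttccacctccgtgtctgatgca
Lss: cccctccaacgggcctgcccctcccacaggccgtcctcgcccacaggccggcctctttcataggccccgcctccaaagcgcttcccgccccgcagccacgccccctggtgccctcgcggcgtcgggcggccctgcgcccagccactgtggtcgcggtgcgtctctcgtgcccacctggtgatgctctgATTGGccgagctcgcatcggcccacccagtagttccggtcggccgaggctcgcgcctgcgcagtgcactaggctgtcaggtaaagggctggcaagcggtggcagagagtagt
The sterol element of Hmgcs1 begins 137 bases before the start, and the 4 CCAAT matches of that window all read ATTGG, so the CCAAT lies on the strand opposite to the gene. Tm7sf2 and Lss each have 1 match, also as ATTGG, 47 and 62 bases before the start. Hmgcs1, an early enzyme of the pathway, had 471, 547 and 593 CPM at E15.5 and 206, 246 and 209.6 CPM at PND 0 (log2 fold change -1.28, SE 0.13, adjusted p = 1.3e-06), a smaller fall than Tm7sf2 and Lss. In steroid synthesis the NR5A1 element CAAGGTCA was found in 0 of 13 windows (1.76% of all windows). Star and Cyp17a1 had no window. The 13 include Cyp19a1 and Akr1c6, which were filtered out of the test of the age change.

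Sertoli cell transcripts rose towards birth. Of 30 tested markers 17 were higher and 1 was lower (median log2 fold change 0.70), with 16 or 17 higher when any 1 KO library was left out. Rhox8 (chromosome X, 37874778 to 37878944), a homeobox gene of Sertoli cells, rose most and had 16.2, 9.96 and 16.7 CPM at E15.5 and 96.3, 149 and 151 CPM at PND 0 (log2 fold change 3.21, SE 0.21, adjusted p = 2.6e-08). Aard had 96.4, 92.1 and 105 CPM at E15.5 and 308, 353 and 318 CPM at PND 0 (log2 fold change 1.73, SE 0.13, adjusted p = 8.5e-08), and Cldn11, which encodes a tight junction protein of the later blood-testis barrier, had 10.9, 12.7 and 12.9 CPM at E15.5 and 29.3, 49.0 and 41.8 CPM at PND 0 (log2 fold change 1.72, SE 0.18, adjusted p = 3.0e-06). None of these had overlapping ages, which for Rhox8 was a condition of its place among the 12 largest rises. Fshr, the receptor for follicle-stimulating hormone, had 19.6, 22.6 and 20.03 CPM at E15.5 and 53.4, 67.7 and 75.7 CPM at PND 0 (log2 fold change 1.66, SE 0.23, adjusted p = 3.6e-05), and Dmrt1, which holds male fate, had 58.2, 48.3 and 66.0 CPM at E15.5 and 132, 174 and 149 CPM at PND 0 (log2 fold change 1.398, SE 0.11, adjusted p = 1.8e-07). Sox8 and Kitl, the ligand of KIT, had log2 fold changes of 1.26 and 0.999. Dhh, Gja1, Mro, Cst9, Cited1, Clu, Erbb4 and Etd also rose, at 0.68 to 1.06. Erbb4 was higher by less than 1.5-fold without E15.5 KO replicate 1 (0.54).

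Other Sertoli genes behaved less simply. Sox9, the switch of Sertoli fate, had 85.2, 94.8 and 94.0 CPM at E15.5 and 199.7, 124 and 104 CPM at PND 0 and was called (log2 fold change 0.64, SE 0.18, adjusted p = 0.0086), but replicate 1 stood well above the others, and without it the log2 fold change was 0.32 (adjusted p = 0.0552). Amh, Gata4, Wt1 and Gdnf were not called, with log2 fold changes of 0.44, 0.46, 0.23 and 0.27. Ptgds, Krt18, Defb19, Trf, Tsx, Espn and Gata1 were not called either, at -0.86 to 0.30. The single fall was Rhox5, with 6.90, 4.04 and 6.07 CPM at E15.5 and 1.12, 0.710 and 0.570 CPM at PND 0 (log2 fold change -2.82, SE 0.43, adjusted p = 9.1e-05), opposite in direction to Rhox8 of the same cluster. Summed over the 30 markers the level was 6125, 6282 and 6278 CPM at E15.5 and 9531, 9395 and 9325 CPM at PND 0.

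Genes of the germ line fell broadly. Of 19 tested germ cell markers 15 were lower and none was higher (median log2 fold change -2.05), with 15 to 17 lower when any 1 KO library was left out. Ddx4, the germ cell helicase, had 83.3, 46.4 and 103 CPM at E15.5 and 24.0, 17.9 and 14.2 CPM at PND 0 (log2 fold change -2.05, SE 0.29, adjusted p = 5.0e-05). Dnd1, an RNA-binding protein needed for germ cell survival, fell more and had 42.7, 21.5 and 62.3 CPM at E15.5 and 4.88, 5.49 and 4.18 CPM at PND 0 (log2 fold change -3.12, SE 0.35, adjusted p = 5.2e-06). Stk31, Tex14, Rnf17, Asz1, Tdrd5 and Tuba3a fell as well (-2.83, -2.76, -2.32, -2.30, -2.03 and -1.61), with Tuba3a at -0.92 without E15.5 KO replicate 3. Dazl, also an RNA-binding protein, had 76.7, 42.0 and 78.7 CPM at E15.5 and 52.5, 35.5 and 26.1 CPM at PND 0 and was not called (log2 fold change -0.79, adjusted p = 0.0501), with overlapping ages, but was called without E15.5 KO replicate 2 (-1.03, adjusted p = 0.0161) or PND 0 KO replicate 1 (-1.10, 0.0179). Taf7l (-0.19), Gtsf1 (-1.37) and Trim71 (-0.62) were not called, and Trim71 was without E15.5 KO replicate 2 (-0.88, 0.0268). The E15.5 libraries themselves differed, with summed levels of 808, 470.3 and 1201 CPM against 290.4, 196 and 179.6 CPM at PND 0. E15.5 KO replicate 2 was the lowest of its group and replicate 3 the highest.

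**Figure D4:**
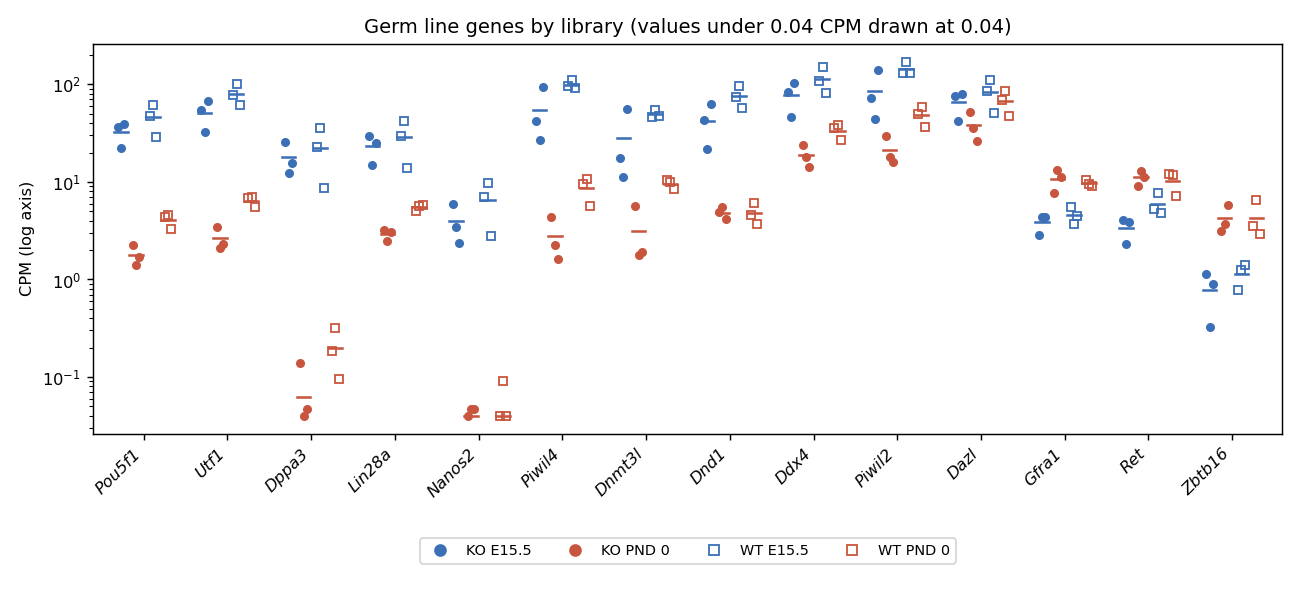
CPM on a log axis of 14 germ line genes in each library of KO (filled circles) and WT testes (open squares) at E15.5 (blue) and PND 0 (red), with group means as short lines and values under 0.04 CPM drawn at 0.04. Pou5f1, Utf1, Dppa3, Nanos2 and Piwil4 lie far lower at PND 0, Dazl overlaps between ages, and Gfra1, Ret and Zbtb16 lie higher in KO testes, while the Ret values of the WT ages overlap. Gfra1, Ret and Zbtb16 come from the spermatogonial list, of which 4 tested genes rose and 8 fell in KO testes.

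Pluripotency genes, which germ cells express until they arrest, were also lower at birth. Of 20 tested genes 18 were lower and 2 higher (median log2 fold change -2.56), with 15 to 17 lower when 1 KO library was left out and 13 lower with limma voom and the title number as a block. Pou5f1 (chromosome 17, 35506018 to 35510772), which encodes OCT4, had 36.7, 22.1 and 39.4 CPM at E15.5 and 2.23, 1.42 and 1.71 CPM at PND 0 (log2 fold change -4.19, SE 0.32, adjusted p = 1.1e-07), and Utf1, a chromatin factor, had 54.2, 32.6 and 66.9 CPM at E15.5 and 3.49, 2.08 and 2.33 CPM at PND 0 (log2 fold change -4.28, SE 0.30, adjusted p = 5.2e-08). Dppa3, which protects methylation in the early embryo, went from 25.6, 12.4 and 15.8 CPM to 0.140, 0 and 0.0475 CPM (log2 fold change -8.03, SE 0.77, adjusted p = 9.1e-07). All 3 are among the 12 largest falls, for which absence of overlap between the ages was a condition. Every PND 0 library lay far below every E15.5 library for each. Without PND 0 KO replicate 1 the fitted value of Dppa3 was -9.25. Sox2, Nanog, Lin28a and Sall4 had log2 fold changes of -3.22, -2.38, -2.99 and -1.97. Dppa4, Dppa5a, Zfp42, Esrrb and Tfcp2l1 had -3.27, -3.38, -2.73, -1.30 and -1.28. Beside Tdgf1, which is also on this list, 3 genes had calls that depended on single libraries. Nanos3 (log2 fold change -1.38, adjusted p = 0.0274) lost it without E15.5 KO replicate 1, PND 0 KO replicate 1 or PND 0 KO replicate 2 (adjusted p from 0.0748 to 0.140), Tfap2c (log2 fold change -1.39, adjusted p = 0.0371) without E15.5 KO replicates 1 or 3 or PND 0 KO replicates 2 or 3 (0.0586 to 0.143), and Prdm1 (log2 fold change -0.62, adjusted p = 0.0185) without E15.5 KO replicate 3 (0.0888) or PND 0 KO replicate 1 (0.0655). Prdm14 had 45 counts over the E15.5 libraries and 3 over the PND 0 libraries, a ratio of 14.5 with a counting interval of 4.67 to 73.1. The 2 genes that rose, Klf4 (14.5, 13.0 and 19.4 CPM at E15.5 and 40.2, 30.6 and 28.1 CPM at PND 0; 1.08) and Ifitm3 (0.85), are also expressed outside the germ line. Kit, which marks germ cells and other cell types, fell by 0.77 on the log2 scale, to values of 25.2, 23.0 and 28.8 CPM.

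The piRNA and methylation machinery of prospermatogonia was also lower at birth, with 17 of 24 tested genes lower and none higher (median log2 fold change -1.97). This list shares 9 genes with the germ cell list. Piwil4, the nuclear PIWI protein that guides methylation in fetal germ cells, had 42.4, 26.7 and 94.8 CPM at E15.5 and 4.42, 2.27 and 1.61 CPM at PND 0 (log2 fold change -4.30, SE 0.60, adjusted p = 3.7e-05). Dnmt3l, the cofactor of DNA methylation in germ cells, had 17.5, 11.2 and 56.4 CPM at E15.5 and 5.67, 1.80 and 1.90 CPM at PND 0 (log2 fold change -3.18, SE 0.62, adjusted p = 7.3e-04). Piwil2, the cytoplasmic relative of Piwil4, fell less. It had 71.6, 43.8 and 139.8 CPM at E15.5 and 29.7, 17.8 and 15.9 CPM at PND 0 (log2 fold change -2.01, SE 0.37, adjusted p = 4.4e-04). In these 3 genes E15.5 KO replicate 3 was the highest library. Without it the log2 fold changes were -3.63 for Piwil4 and -2.20 for Dnmt3l, and without PND 0 KO replicate 1 that of Dnmt3l was -3.94. Nanos2, which promotes male germ cell fate, had 258 counts over the 3 E15.5 libraries and 2 over the 3 PND 0 libraries, a ratio of 124.99 with a counting interval of 34.3 to 1038. Spocd1, Morc1, Mov10l1, Tdrd1, Tdrd9 and Mael had log2 fold changes of -2.68, -2.42, -2.73, -2.42, -2.44 and -1.94. Without E15.5 KO replicate 3 those of Spocd1 and Tdrd9 were -1.65 and -1.63, and without PND 0 KO replicate 1 they were -3.69 and -3.28. Exd1, Fkbp6, Tex15 and Tdrkh fell by less (-1.51, -1.67, -1.64 and -1.09), and Pld6 was not called (-0.059). The genes of general DNA methylation, which act in many cell types, were not among the calls. Dnmt1, Dnmt3a, Dnmt3b, Uhrf1 and Hells were not called, at -0.25, -0.55, -0.28, -0.25 and -0.056. Dnmt3a passed the fold threshold without PND 0 KO replicate 2 or 3 (-0.60 in both cases).

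Genes of later spermatogonia were split, with more falls than rises. Of 21 tested genes of that list 4 rose and 8 fell (median log2 fold change -0.18), and 3 rose and 5 fell with limma voom and the title number as a block. The 4 that rose, named because they were few, were the GDNF receptor gene Gfra1 (2.86, 4.37 and 4.33 CPM at E15.5 and 7.63, 13.2 and 11.1 CPM at PND 0; log2 fold change 1.46, SE 0.23, adjusted p = 1.3e-04), its signalling partner Ret (4.04, 2.30 and 3.88 CPM at E15.5 and 9.16, 13.0 and 11.3 CPM at PND 0; log2 fold change 1.71, SE 0.48, adjusted p = 0.00925), Zbtb16, which encodes PLZF (1.13, 0.329 and 0.892 CPM at E15.5 and 3.12, 3.74 and 5.79 CPM at PND 0; log2 fold change 2.41, SE 0.44, adjusted p = 4.1e-04), and Lhx1, which was at 2.42 CPM or less in every KO library. Lhx1 is also on the mesonephros list and was not called with that block (adjusted p = 0.0599). Zbtb16 is also on the list of genes that respond to glucocorticoid or to birth, and is counted there as well. None of the 4 had overlapping ages, which is a description without the share of all tested genes beside it. Rhox10 and Egr4 fell, at -2.16 and -1.61, and Egr4 lost its call without any 1 of 5 libraries, all but E15.5 KO replicate 2 (adjusted p from 0.0788 to 0.163). Nanos2 and Sall4, given above, are also on this list and fell, as did Stra8, Sohlh1, Uchl1 and Upp1. Stra8 had 57, 64 and 76 counts at E15.5 and 26, 11 and 17 at PND 0. The Sohlh1 and Uchl1 calls were lost without E15.5 KO replicate 3 (adjusted p = 0.376 and 0.0660). Id4, Etv5, Bcl6b and Foxo1 were among the 9 that were not called.

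Few mitosis and DNA replication genes passed the 1.5-fold threshold. Of 25 mitosis genes 2 fell, Cenpe (-0.67) and Hmmr (-0.67), and none rose, with a median log2 fold change of -0.37. Their summed level was 3534, 3606 and 3287 CPM at E15.5 and 2851, 2775 and 2798 CPM at PND 0. Every PND 0 library thus lay below every E15.5 library. Mki67 had 396, 439 and 339 CPM at E15.5 and 281, 311 and 360.1 CPM at PND 0 (log2 fold change -0.30, adjusted p = 0.0997). The CHR element TTTGAA, a short element found in many promoters of mitotic genes, was present on either strand in 16 of the 21 mitosis genes with a window (76.2%, against 20.2% of all windows). None of 21 DNA replication genes was called in either direction (8 had an adjusted p below 0.05, all under 1.5-fold). Pcna, the replication clamp, had 109.8, 122 and 112 CPM at E15.5 and 106, 133 and 121 CPM at PND 0 (log2 fold change 0.068, adjusted p = 0.542) and Mcm2, a subunit of the replicative helicase, had 221, 237 and 214 CPM at E15.5 and 165, 247 and 216 CPM at PND 0 (log2 fold change -0.10, adjusted p = 0.546). Replicate 1 was the lowest PND 0 library for both. Of the inhibitors, Cdkn2c, which encodes p18, rose (23.7, 27.3 and 28.2 CPM at E15.5 and 59.4, 63.4 and 57.9 CPM at PND 0; log2 fold change 1.19, SE 0.15, adjusted p = 1.3e-05), and Cdkn1c, which encodes p57 and is imprinted, fell (135, 147 and 139 CPM at E15.5 and 71.4, 82.7 and 94.7 CPM at PND 0; log2 fold change -0.76, SE 0.12, adjusted p = 1.0e-04). 

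Fetal growth genes declined. Of 12 genes 7 fell and 1 rose (median log2 fold change -0.84). Beside Hmga2 the RNA-binding protein genes Igf2bp1 and Igf2bp2 had log2 fold changes of -1.48 and -1.18, and Hmga1 had -1.62. Mycn was the one that rose (58.7, 57.8 and 63.8 CPM at E15.5 and 101, 93.4 and 99.7 CPM at PND 0; log2 fold change 0.71, adjusted p = 7.8e-05). Among 22 imprinted genes 8 fell and 1 rose. The growth factor gene Igf2 had 1609, 1653 and 1334 CPM at E15.5 and 838, 814 and 988 CPM at PND 0 (log2 fold change -0.80, SE 0.17, adjusted p = 0.00129), Mest had 813, 888 and 692 CPM at E15.5 and 466, 307 and 320.3 CPM at PND 0 (log2 fold change -1.13, SE 0.13, adjusted p = 7.6e-06), and Grb10, which restrains growth signals, had a log2 fold change of -0.76. Dlk1 was the one that rose (1179, 1287 and 1265 CPM at E15.5 and 1791, 2008 and 2011 CPM at PND 0; log2 fold change 0.64, adjusted p = 1.2e-04). H19, next to Igf2, had 2134, 2296 and 1879 CPM at E15.5 and 1741, 1928 and 2027 CPM at PND 0 and was not called (log2 fold change -0.15, adjusted p = 0.518).

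Support tissues changed gene by gene. In the extracellular matrix list 8 of 28 genes rose and none fell (median log2 fold change 0.27), 28.6% called beside 19.7% of all tested genes. The basement membrane collagen genes Col4a4 and Col4a3, which share a promoter region, had 61.0, 66.4 and 75.1 CPM at E15.5 and 249, 239 and 239 CPM at PND 0 (log2 fold change 1.84, SE 0.13, adjusted p = 4.6e-08) and a log2 fold change of 1.99, while the most abundant collagen genes Col3a1, Col1a1 and Col1a2 were not called (0.077, -0.14 and 0.36). Lama2, which encodes a laminin chain, had 159.9, 167 and 161 CPM at E15.5 and 450.1, 477 and 512 CPM at PND 0 (log2 fold change 1.56, SE 0.24, adjusted p = 8.2e-05). The proteoglycan genes Ogn and Dcn and the matrix gene Mgp had 1.78, 0.78 and 1.34. Of 12 peritubular myoid and smooth muscle genes 3 rose and 1 fell (33.3% called). Myh11, smooth muscle myosin, rose (59.4, 60.4 and 68.1 CPM at E15.5 and 83.5, 148 and 147 CPM at PND 0; log2 fold change 1.01, adjusted p = 0.0352), but its call was lost without any 1 of 5 libraries, all but PND 0 KO replicate 1 (adjusted p from 0.0610 to 0.104). Smtn (smoothelin) was the one that fell (115, 108 and 89.3 CPM at E15.5 and 51.4, 71.7 and 76.4 CPM at PND 0; log2 fold change -0.64, adjusted p = 0.0101), and it was not called without E15.5 KO replicate 1 (-0.57) or PND 0 KO replicate 1 (-0.49, adjusted p = 0.0514). Des (desmin) had 32.8, 31.2 and 34.5 CPM at E15.5 and 54.7, 51.6 and 51.6 CPM at PND 0 (log2 fold change 0.68, adjusted p = 1.4e-04), and Acta2 had 532, 548 and 566 CPM at E15.5 and 528, 708 and 696 CPM at PND 0 and was not called (log2 fold change 0.23, adjusted p = 0.551).

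Endothelial genes were split between the PND 0 libraries. Of 16 genes 4 fell and 1 rose (median log2 fold change -0.36), with 8 lower when PND 0 KO replicate 1 was left out. With all libraries 31.25% were called, beside 19.7% of all tested genes. Plvap, which builds the diaphragms of capillaries, had 41.2, 39.3 and 35.3 CPM at E15.5 and 12.2, 5.78 and 8.12 CPM at PND 0 (log2 fold change -2.15, SE 0.18, adjusted p = 2.0e-07). Flt1, a receptor for VEGF, had 51.8, 43.9 and 37.3 CPM at E15.5 and 27.7, 16.6 and 14.8 CPM at PND 0 (log2 fold change -1.17, SE 0.19, adjusted p = 1.3e-04). Emcn and Vwf had -0.81 and -0.89, and Sox18 rose (49.9, 58.1 and 69.1 CPM at E15.5 and 100.4, 119 and 113 CPM at PND 0; 0.91). The general marker Cdh5 had 246, 252 and 247 CPM at E15.5 and 386, 312 and 312 CPM at PND 0 and was higher by less than 1.5-fold (log2 fold change 0.44, adjusted p = 0.00139). The summed level of the 16 genes was 1285, 969 and 1002 CPM at PND 0 against 1145, 1162 and 1077 CPM at E15.5, so replicate 1 lay above the E15.5 libraries and replicates 2 and 3 below them.

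Blood and immune cells set some of the largest values. Of 14 erythroid genes 12 fell (7 with limma voom and the title number as a block), beside the high summed erythroid level of E15.5 KO replicate 2 given above, without which 11 fell. Among them are the embryonic globin genes Hbb-y, with 2018 counts over the E15.5 libraries and 1 over the PND 0 libraries (ratio 1955, counting interval 351 to 77269), and Hba-x (-8.45). Hbb-bh1 was at 0 in all 3 PND 0 libraries, at least 19.4-fold lower than at E15.5 against a floor of 3 counts over the group. Macrophage genes rose in 5 of 19 cases and fell in none (median log2 fold change 0.45). The share called, 26.3%, was near the 19.7% of all tested genes called in either direction. The complement genes C1qa, C1qb and C1qc had 0.96, 0.71 and 0.97, and Csf1r, the receptor that defines the lineage, had 23.8, 24.5 and 23.7 CPM at E15.5 and 25.1, 29.2 and 29.2 CPM at PND 0 and was not called (log2 fold change 0.21, adjusted p = 0.127). Of neutrophil and mast cell genes the granule gene Ngp had 19.97, 39.3 and 14.3 CPM at E15.5 and 9.44, 7.24 and 222 CPM at PND 0 (log2 fold change 1.70, adjusted p = 0.248). Without PND 0 KO replicate 3 the median of that list was -0.63 in place of 1.29.

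Genes that respond to glucocorticoid or to birth rose in 5 of 16 cases and fell in 1. Klf9, a target of the glucocorticoid receptor, had 3.77, 4.27 and 4.55 CPM at E15.5 and 13.7, 19.2 and 21.1 CPM at PND 0 (log2 fold change 2.10, SE 0.19, adjusted p = 4.3e-07), and Cebpd had 6.99, 8.97 and 8.84 CPM at E15.5 and 13.3, 19.1 and 19.1 CPM at PND 0 (log2 fold change 1.06, SE 0.15, adjusted p = 5.8e-05). Fkbp5, a common readout of the same receptor, had 248, 252 and 236 CPM at E15.5 and 178, 256 and 266 CPM at PND 0 and was not called (log2 fold change -0.074, adjusted p = 0.648). Cebpb was the one that fell (38.1, 41.5 and 34.7 CPM at E15.5 and 28.3, 16.4 and 26.6 CPM at PND 0; log2 fold change -0.68, SE 0.21, adjusted p = 0.0151), whereas in WT testes it rose (0.73, adjusted p = 0.0086). The difference between genotypes was not called (difference of the log2 changes -1.41, SE 0.29, adjusted p = 0.149), and the fall was lost without E15.5 KO replicate 2 (adjusted p = 0.0502) or PND 0 KO replicate 2 (0.0774). Immediate early genes, which dissection can raise, rose in 1 of 12 cases (3 when PND 0 KO replicate 1 was left out and 2 when E15.5 KO replicate 1 was), Egr2 (1.86), and Egr1 and Jun were not called (0.74 and 0.13). Without PND 0 KO replicate 1 Egr1 was called (0.97, adjusted p = 0.0271).

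Tissue that could be carried over with the testis was checked on its own lists. Of the mesonephros and epididymis list, 8 of 12 genes were tested, and Emx2 (-2.08) and Hoxd11 (-1.13) fell, while Lhx1, given above among spermatogonial genes, rose (1.76). The summed level of the 8 genes was 63.5, 67.1 and 55.0 CPM at E15.5 and 23.2, 29.2 and 41.6 CPM at PND 0. Of 6 mesothelial genes Msln rose and the others were not called. Neither Lhx1 nor Msln was called with limma voom and the title number as a block. Only 3 of 8 adipocyte genes were tested. Schwann cell genes went in opposite directions, S100b (0.499, 0.423 and 0.223 CPM at E15.5 and 6.05, 9.47 and 9.97 CPM at PND 0; log2 fold change 4.46, SE 0.30, adjusted p = 3.0e-08) up and Sox10 (7.04, 7.19 and 6.34 CPM at E15.5 and 1.86, 2.27 and 2.23 CPM at PND 0; log2 fold change -1.69, SE 0.25, adjusted p = 7.9e-05) down. Of 7 ovarian somatic genes Esr2 rose (0.62), though it lost its call when E15.5 KO replicate 1 (adjusted p = 0.0519) or PND 0 KO replicate 3 (0.54, under 1.5-fold) was left out. Bmp2, given above, and Wnt4 fell (151, 165 and 141 CPM at E15.5 and 44.0, 54.7 and 47.6 CPM at PND 0; log2 fold change -1.64, SE 0.16, adjusted p = 1.5e-06), and Foxl2, which defines granulosa cells, was at 1.36 to 2.28 CPM in the 6 KO libraries. The part of these tissues in the results above was not tested.

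Most genes called in KO development were also called in WT development, nearly all in the same direction. In WT testes 3990 genes were called between the same ages (21.4%), 2552 genes were called in both genotypes, and 2550 of these moved in the same direction. That is 69.4% of the KO calls and 64.0% of the WT calls. Across all tested genes the log2 fold changes of the 2 genotypes correlated at 0.819 (Pearson r across 18635 genes, a description, since genes are not independent replicates). The difference between the age changes was called for 4 genes at an adjusted p below 0.05 (0.0215% of those tested) and had an unadjusted p below 0.05 for 2073. The latter is more than the share of 0.05 that would pass if no gene differed. A p above the threshold does not show that the changes were equal.

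Of the 4 genes 3 were higher in KO than in WT testes at E15.5 and had the smaller change, and the other one had the larger change. Cbln1, which encodes a secreted cerebellin, had 543, 539 and 502 CPM at E15.5 and 709.7, 705 and 692 CPM at PND 0 in KO testes, under 1.5-fold, and 248, 212 and 245 CPM and then 686, 635 and 628 CPM in WT testes (difference of the log2 changes -1.06, SE 0.10, adjusted p = 1.2e-04). Ccl17, a chemokine gene, had 50.4, 57.3 and 66.3 CPM at E15.5 and 65.0, 64.0 and 67.1 CPM at PND 0 in KO testes, with no call, and 12.9, 13.2 and 14.3 CPM and then 39.6, 38.2 and 42.7 CPM in WT testes (difference of the log2 changes -1.41, SE 0.16, adjusted p = 0.00179). Pnmt, the enzyme that makes adrenaline, rose in both genotypes, with 12.3, 11.7 and 17.3 CPM at E15.5 and 103, 90.4 and 87.0 CPM at PND 0 in KO testes and 2.14, 2.07 and 3.04 CPM and then 54.9, 40.1 and 48.3 CPM in WT testes (difference of the log2 changes -1.54, SE 0.23, adjusted p = 0.0332). Tmem114, a membrane protein gene, rose more steeply in KO testes, from 4.87 ± 0.522 to 40.3 ± 8.91 CPM (SD, n = 3 each), than in WT testes, from 8.46 ± 0.760 to 24.8 ± 3.23 CPM (difference of the log2 changes 1.499, SE 0.23, adjusted p = 0.0332). Leaving out 1 of the 12 libraries at a time, the Pnmt call was lost in 7 fits (adjusted p from 0.0504 to 0.176). It was kept without E15.5 WT replicate 3, E15.5 KO replicates 2 or 3, PND 0 WT replicate 2 or PND 0 KO replicate 1. The Tmem114 call was lost in 10 fits (0.0504 to 0.162) and kept without PND 0 WT replicate 2 or PND 0 KO replicate 1. With limma voom neither Pnmt nor Tmem114 was called (adjusted p = 0.127 for both), nor with the title number as a block (0.114 for both), and Pnmt was not called with the E15.5 and PND 0 libraries alone (0.0715).

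The number of such genes depended on 1 library. Without PND 0 KO replicate 1 the difference was called for 395 of 18582 tested genes, and without PND 0 KO replicate 2 or 3 for 2 genes in either case. Leaving out E15.5 KO replicate 1, E15.5 WT replicates 1 or 2, or PND 0 WT replicate 1 also gave 2, and DESeq2 gave 111 with all libraries. The 2 libraries that remain without replicate 1 share the title number 4295. The fit treats them as independent, which the labels do not settle. In that fit 11 of 16 endothelial genes were called, all with a more negative change in KO than in WT testes, among them Tie1 (difference -1.13, adjusted p = 0.00251), Plvap (-1.25, 0.00397) and Emcn (-0.84, 0.00655). Of 16 fetal Leydig genes 5 were called in the same direction, Insl3 (-2.05, 0.00251), Ren1 (-1.67, 0.0225), Cyp11a1 (-1.41, 0.0212), Crhr1 (-1.14, 0.0167) and Hsd3b1 (-0.76, 0.0492). Of 21 DNA replication genes 7 were called, all with a less negative or more positive change in KO testes, and Lefty2 had a difference of -2.99 (adjusted p = 0.00155). The Sertoli markers Aard (0.99, 0.0174) and Cldn11 (1.37, 0.00916) rose more in KO than in WT testes in that fit, and the Sertoli marker Ptgds differed in the opposite direction (-0.73, 0.0124). None of these genes was called with all 3 libraries, where the smallest adjusted p among them was 0.121 (Aard). In the fit without replicate 1, 4 of 12 interstitial progenitor genes and 3 of 22 imprinted genes were also called, all with a more negative change in KO testes. No cholesterol synthesis, germ cell or mitosis gene was called in it.

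With all libraries these lists are given as a description. The KO change was below the WT change for all 16 endothelial genes (median difference -0.61) and for 12 of 16 fetal Leydig genes (median -0.47), and above it for all 21 DNA replication genes (median 0.32), beside a median of 0.0060 over all tested genes. Cholesterol synthesis and germ cell genes had medians of 0.026 and -0.29. At PND 0 the summed fetal Leydig level was 4961, 3861 and 3979.5 CPM in WT testes and 3722, 2728 and 2628 CPM in KO testes, and that of the DNA replication list was 1554, 1452 and 1678 CPM in WT and 1667, 2187 and 2063 CPM in KO testes. In both lists KO replicate 1 was the library nearest to WT.

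**Figure D5:**
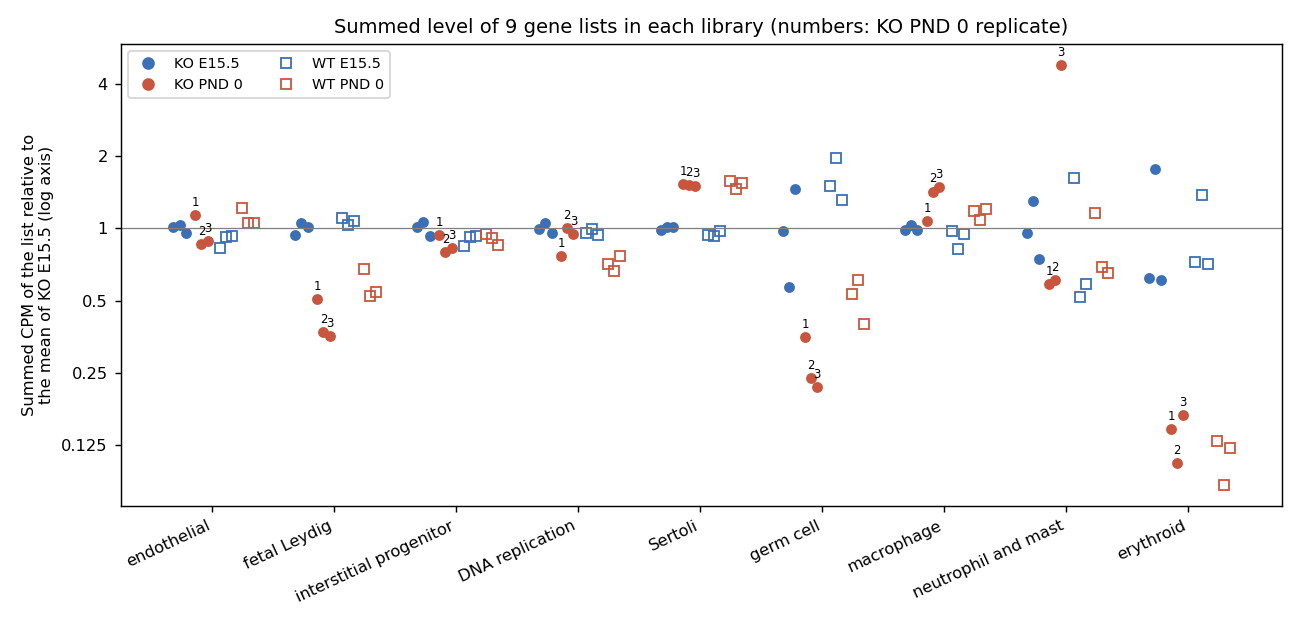
Summed CPM of 9 gene lists in each library relative to the mean of the 3 KO E15.5 libraries (log axis), for KO (filled circles) and WT testes (open squares) at E15.5 (blue) and PND 0 (red), with the replicate number beside each KO PND 0 point. Replicate 1 lies apart from replicates 2 and 3 on the endothelial, fetal Leydig and DNA replication lists, replicate 3 lies apart on the neutrophil and mast cell list, and the 3 lie between 9325 and 9531 CPM on the Sertoli list.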

How the data were processed

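Whole-testis RNA of Inha KO and WT mice was sequenced as paired ends (DNBSEQ-G400). The deposited values are raw counts per gene, which the authors made with RNAsik (STAR alignment to GRCm38, then featureCounts). The strand setting is not given in the sources used here, and 122 of the genes in the lists or named share exon bases with another annotated gene, so their reads may not be told apart. The authors analysed counts with limma voom and TMM. Groups followed the titles, since the genotype field of the E15.5 WT libraries reads KO.

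Here 1 model of 6 groups was fitted to the 17 libraries with edgeR 4.0.16 (R 4.3.3; TMM, quasi-likelihood test, two-sided, Benjamini-Hochberg over all tested genes). A group filter kept 18635 of 19110 genes. A gene was called at an adjusted p below 0.05 and 1.5-fold, and differences between genotypes at an adjusted p below 0.05 alone. The SE is the log2 fold change over the square root of the F statistic. Of the gene IDs 19028 matched the GRCm38 annotation. Total counts of 21517626 to 22166752 per KO library set the depth, and counting intervals and floors cover counting error only. Alternatives were DESeq2 1.42.0, limma 3.58.1 voom with and without the title number as a block, other scalings, filters and thresholds, subsets of libraries, and leaving out each library. Scripts were tested on simulated data.

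The gene lists and members were chosen with earlier results of these data known. Named genes were the 12 with the largest change in each direction among those called, not clone names, without overlap between ages and at 10 CPM or more in the higher group, all members of the pathway, Sertoli and germ line lists, and in other lists up to 6 called genes at 5 CPM or more and up to 3 that were not called. List genes that were filtered out, such as Cyp19a1, were not tested for an age change here, and a few genes of the lists are counted but not reported by name.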

Additional observations from a re-analysis of the deposited data

Results flagged for a closer look

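The age change from E15.5 to PND 0 differed between KO and WT testes for 4 genes by the test of the difference itself (edgeR's quasi-likelihood test, adjusted p below 0.05). KO minus WT, the difference of the log2 changes was -1.06 for Cbln1 (adjusted p = 1.2e-04), -1.41 for Ccl17 (0.00179), -1.54 for Pnmt (0.0332) and 1.499 for Tmem114 (0.0332). Cbln1 and Ccl17 differed mostly at E15.5, where all 3 KO libraries were above all 3 WT libraries.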

How the results depend on the processing

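The number of genes called between E15.5 and PND 0 in KO testes (3678) was 3247 to 3735 with DESeq2, limma voom, other scalings, other filters, subsets of libraries and the title number as a block, and 3293 to 3523 when 1 KO library was left out. It was 7706 by adjusted p alone, 2105 with a fold change of at least 2 and 1548 with glmTreat, as these thresholds are looser or stricter by construction. In WT testes (3990) it was 8267 by adjusted p alone and 3388 to 4139 without 1 library. The number of genes whose age change differed between genotypes (4) was 111 with DESeq2, 2 with limma voom, 3 with limma voom and the title number as a block, 8 with the E15.5 and PND 0 libraries alone and 2 to 395 without 1 library, where 395 was without PND 0 KO replicate 1, and the cause was not tested. No call among the genes listed or named turned its direction in KO testes in the fits made for them, which leave out a KO library or change the tool, scaling, filter or samples (454 genes in most, 444 with the stricter filter and 446 with the KO libraries alone). Other scalings put the median of all genes between -0.028 and -0.0022 and the share of higher calls between 46.8% and 49.6%. No paired analysis was possible because no title number is shared between E15.5 and PND 0, although 4138 and 4183 are each shared by KO and WT libraries of 1 age. With the title number as a block (limma voom, consensus correlation 0.329) 23 of the 454 genes lost their call and 1 gained one. At this depth genes under 1 CPM rest on few counts in a library, and small differences at that level were not detectable.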
